A study of Drosophila melanogaster with 2 samples.

Results

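The core autophagy genes of Drosophila melanogaster were examined for ChIP-seq peaks of the protein CG7101, profiled here as a transcription factor. The set was a list of 10 named genes, Atg1, Atg2, Atg3, Atg4a, Atg5, Atg6, Atg7, Atg8a, Atg8b and Atg9, and all 10 were found among the 13945 protein-coding genes of the 6 chromosome arms. The rule names the genes and uses no measured value, but the list was drawn up with earlier results of these data known. For each gene, every peak summit within 500 bp of an annotated transcription start site, or inside the gene, was collected.

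Chromatin came from whole adult females of a transgenic line that stably expresses CG7101 with GFP at its C terminus, and the labels give the age as unknown. The IP used an antibody against GFP, and 2 biological replicates formed the 1 group. All cells of the animal were mixed, the labels do not name the promoter that drives the fusion, and a single line stands for the protein, so the tissue in which a peak arose cannot be told apart. The control library against which the authors called peaks was not analysed here, no untagged flies were compared, and read depth is unknown.

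Autophagy encloses cytoplasm in a double membrane and delivers it to the lysosome. A kinase complex starts the process, a phosphatidylinositol 3-kinase complex marks the growing membrane, lipid transfer and scrambling proteins feed it, and ubiquitin-like conjugation systems attach Atg8 to its lipid. In flies autophagy is known above all from the fat body, where starvation and steroid hormone induce it, and from the ovary, where it accompanies the death of nurse cells.

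Peaks were read from 4 lists. The IDR list holds the 6486 peaks that the authors kept as reproducible, and these are exactly the 6486 strongest peaks of the pooled list, with a lowest signal of 142 and a median of 245.3. The pooled list and the list of each replicate hold 30000 peaks each, with a lowest signal of 27.5 in the pooled list, 16.8 in replicate 1 and 14.9 in replicate 2. Signal is the authors' value for a peak and has its own scale in each list, so values are compared within a list, and replicates are compared by rank, with rank 1 the strongest. No statistical test was made, because there was 1 group of 2 samples. Counts over the autophagy genes stand beside the same count over all protein-coding genes.

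Of the 10 autophagy genes, 8 had an IDR summit near a start or inside the gene, against 36.6% of all protein-coding genes, and 7 had an IDR summit within 500 bp of a start, against 33.3%. The genes with an IDR summit at a start were Atg2, Atg3, Atg5, Atg6, Atg7, Atg8a and Atg9. Atg1 had IDR summits in introns and none at its start, and Atg4a and Atg8b had none. In the longer pooled list, 9 of the 10 genes had a summit, all 9 of them also at a start, against 66.6% of all genes for any summit and 62.9% for a start. Replicate 1 gave a summit at 9 of the 10 genes, against 66.2% of all genes, and replicate 2 at 8, against 66%. The gene that differed between replicates was Atg4a, and Atg8b had no summit in any list.

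The sequences that carry the main contrasts are shown here, read from the RefSeq Release 6 (dm6) assembly and written 5′ to 3′ on the strand of the gene. They are the region before the start of Atg2, which held the strongest summit of the set, the region before Atg3, which had a core promoter word, the internal start of Atg8a, which had a summit away from any other gene's start, a stretch of the Atg8a leader, the region before Atg8b, which had no summit, and the strongest site in an Atg1 intron. Capitals mark the word TATCGATA, which was the single word of those searched that occurred in these stretches.

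Atg2 upstream, chr3L:2774038-2774337, plus strand: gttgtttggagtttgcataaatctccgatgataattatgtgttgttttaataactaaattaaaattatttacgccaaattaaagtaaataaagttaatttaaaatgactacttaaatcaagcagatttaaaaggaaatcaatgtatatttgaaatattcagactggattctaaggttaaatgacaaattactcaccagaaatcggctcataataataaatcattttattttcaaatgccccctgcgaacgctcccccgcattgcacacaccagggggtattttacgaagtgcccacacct
Atg3 upstream, chr3L:18748387-18748686, plus strand: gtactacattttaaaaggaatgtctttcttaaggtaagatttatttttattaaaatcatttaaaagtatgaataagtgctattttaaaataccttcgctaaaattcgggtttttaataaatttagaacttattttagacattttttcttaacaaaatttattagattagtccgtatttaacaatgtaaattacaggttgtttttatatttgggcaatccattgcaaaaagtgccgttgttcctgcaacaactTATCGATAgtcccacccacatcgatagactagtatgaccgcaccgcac
Atg8a internal start, chrX:10767307-10767546, minus strand: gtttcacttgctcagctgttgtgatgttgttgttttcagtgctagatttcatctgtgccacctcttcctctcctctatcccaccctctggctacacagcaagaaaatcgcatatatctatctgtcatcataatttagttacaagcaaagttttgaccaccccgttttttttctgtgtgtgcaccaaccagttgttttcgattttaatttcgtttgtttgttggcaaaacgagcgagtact
Atg8a distal leader, chrX:10768268-10768297, minus strand: gtgcgagtgctTATCGATAaaaccagcaag
Atg8b upstream, chr3R:17725064-17725303, minus strand: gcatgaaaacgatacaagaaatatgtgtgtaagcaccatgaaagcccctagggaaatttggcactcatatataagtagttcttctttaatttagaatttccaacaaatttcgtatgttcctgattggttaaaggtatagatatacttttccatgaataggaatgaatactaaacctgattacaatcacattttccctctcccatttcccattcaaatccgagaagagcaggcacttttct
Atg1 intron, chr3L:12798801-12799001, minus strand: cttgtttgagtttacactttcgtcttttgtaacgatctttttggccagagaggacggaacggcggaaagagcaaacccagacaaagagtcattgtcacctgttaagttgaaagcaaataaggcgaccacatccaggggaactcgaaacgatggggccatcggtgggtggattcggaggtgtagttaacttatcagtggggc

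Of the 10 genes, 7 shared an arrangement that the list did not use. Each of the 7 genes with an IDR summit at a start lay head to head with another protein-coding gene whose start was within 500 bp on the opposite strand, and none of the other 3 did. Such a neighbour was present for 51.7% of all 4641 protein-coding genes with an IDR summit at a start and for 27.4% of all protein-coding genes. The neighbours were CG12093 at 331 bp from Atg2, Nufip at 320 bp from Atg3, Dok at 444 bp from Atg5, Pisd at 1 bp from Atg6, Sec6 at 205 bp from Atg7, BTBD9 at 199 bp from the distal start of Atg8a and CG7747 at 270 bp from Atg9. Sap130 lay 786 bp from Atg1 and Lgr1 lay 714 bp from Atg8b, and the nearest other start to Atg4a was that of ast, 2963 bp away on the same strand.

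The same arrangement went with IDR summits over the whole annotation. Of 3815 protein-coding genes with such a neighbour, 62.9% had an IDR summit at a start, against 22.1% of the 10130 without. Part of the gap is built into the count, because a single summit between a pair of starts is counted for both genes. When a summit was counted only where no other protein-coding start was nearer, the shares of all genes, bound or not, were 35.8% with a neighbour and 21.2% without. Among the 7 bound autophagy genes, which all had a neighbour, the count was 4, namely Atg2, Atg5, Atg8a and Atg9. The like count over all bound protein-coding genes with a neighbour was 1365 of 2401. The pattern in the autophagy genes was noticed after the values were seen and depended on the distance allowed: at 250 bp, 3 of the 7 bound genes had a neighbour, and at 1000 bp all 7 had one but so did Atg1 and Atg8b.

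**Figure D1:**
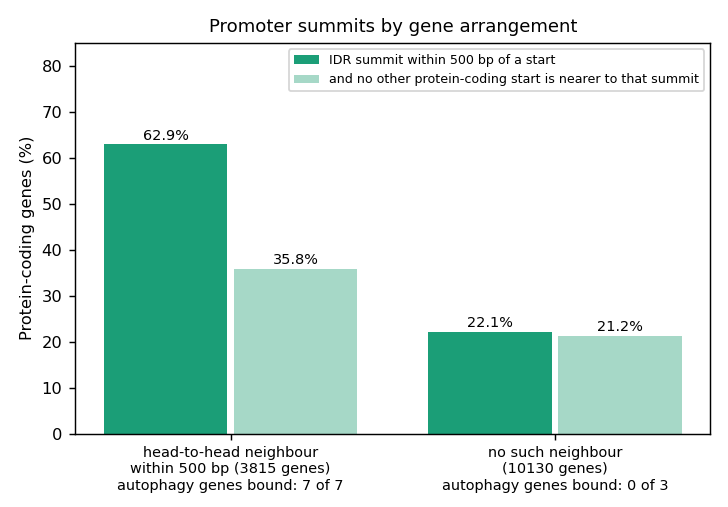
Percentage of protein-coding genes with an IDR summit within 500 bp of a start (dark bars), and with such a summit to which no other protein-coding start is nearer (pale bars), for 3815 genes with a head-to-head neighbour within 500 bp and 10130 without. Dark bars reach 62.9% and 22.1%, and all 7 bound autophagy genes are in the group on the left.

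Most of the 9 IDR summits at autophagy gene starts lay upstream, on the side of the neighbour. Of these 9, 8 were upstream of the autophagy start and 8 had another protein-coding start within 500 bp, and the median position was -104 bp. The same shares over all IDR summits at starts were not computed, so these counts have no background beside them. The second count largely repeats the arrangement above, because each bound gene had a neighbour's start within 500 bp. The exception on the count of other starts was the internal start of Atg8a. Another gene's start was the nearer for 4 of the 9 summits.

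**Figure D2:**
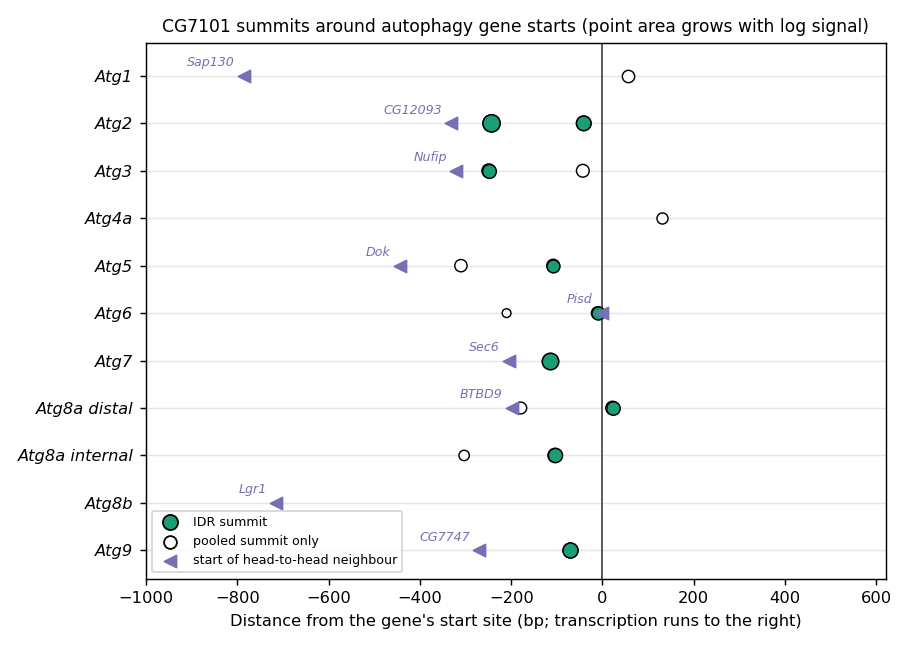
Position of each summit (circles; filled for the IDR list, open for the pooled list alone) and of the head-to-head neighbour's start (triangles) relative to the start of each autophagy gene, in bp, with transcription to the right; circle area grows with log signal. Filled circles sit between the triangle and the start in Atg2, Atg3, Atg5, Atg7 and Atg9, while the Sap130 and Lgr1 triangles lie beyond 500 bp. Only summits inside the autophagy gene or within 500 bp of its own starts are drawn, so none could appear at these triangles.

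Atg1 encodes the serine/threonine kinase that starts autophagosome formation. The gene (FBgn0260945) spans 3L:12784429-12805116 on the minus strand (20688 bp) and was the longest gene of the set. Its strongest IDR summit lay in an intron at 12798901, 6215 bp into the gene, with a pooled signal of 360.6 at rank 1941. The same peak had a signal of 168.4 at rank 2484 in replicate 1 and 207.5 at rank 1407 in replicate 2. Its pooled rank stood well above the last IDR rank of 6486, a limit that applies to the pooled list alone. The sequence around this summit is the Atg1 intron stretch printed above.

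A weaker IDR summit of Atg1 lay 11878 bp into the gene, in an intron that also holds the nested gene CG42709. Its pooled signal was 195.0 at rank 4402, with 100.7 at rank 4909 in replicate 1 and 95.8 at rank 4177 in replicate 2. At the Atg1 start itself the pooled list held a summit in the 5′ UTR, at 57 bp, with a signal of 114.7 at rank 8179, which is below the lowest IDR signal. That peak ranked 5692 in replicate 1 and 8053 in replicate 2. Altogether 17 pooled summits fell in Atg1, 15 of them in introns and 7 of them inside a second gene. Of all 1977 genes of at least 10 kb, 38% had an IDR summit inside the gene and over 500 bp from a start, against 4.6% of the 11968 shorter genes.

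**Figure D3:**
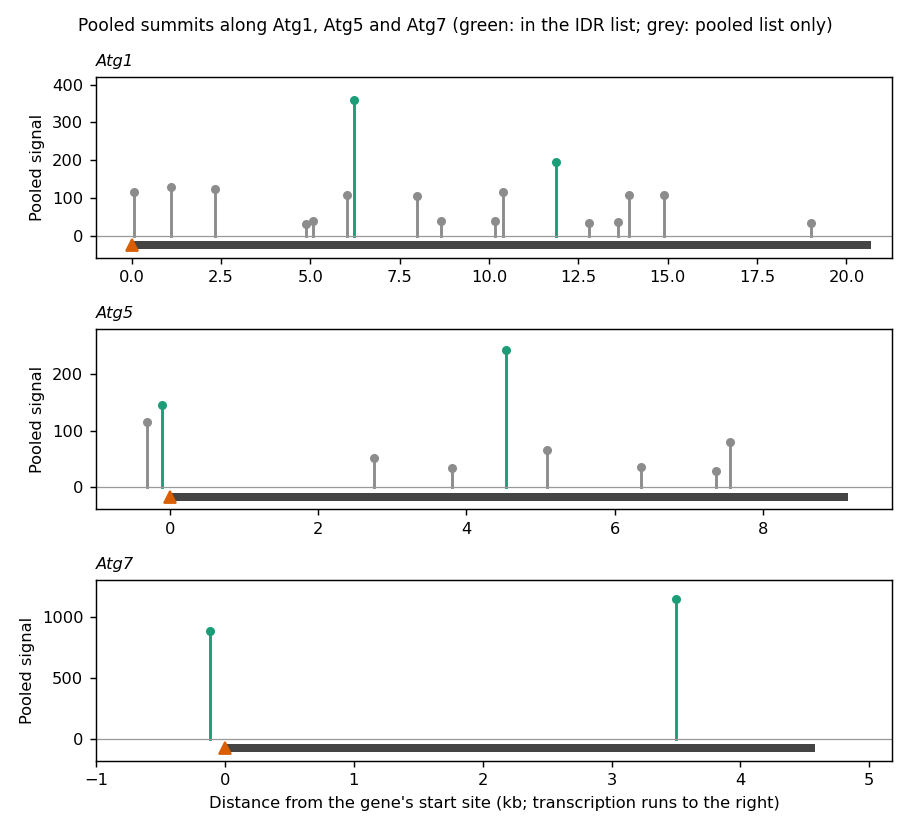
Pooled signal of every pooled summit along Atg1, Atg5 and Atg7 against distance from the gene's start in kb; dark blocks are the genes, triangles their starts, and green stems are summits in the IDR list. The tallest stem is inside the gene in each of the 3, at 6215 bp in Atg1, 4534 bp in Atg5 and 3497 bp in Atg7.

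Atg6, the fly Beclin, is the scaffold of the class III phosphatidylinositol 3-kinase complex. The gene (FBgn0264325) lies at 3R:24049180-24050782 on the minus strand, and its start is 1 bp from that of Pisd, a gene named for phosphatidylserine decarboxylase. The IDR summit at 24050792 was 10 bp upstream of the Atg6 start and 9 bp from the Pisd start, so it cannot be assigned to either gene. It had a pooled signal of 152.6 at rank 5946, close to the end of the IDR list, with 86.1 at rank 5933 in replicate 1 and 57.3 at rank 7913 in replicate 2.

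Atg2 and Atg9 act together in supplying membrane. From yeast and human work, Atg2 transfers lipid to the growing membrane, and Atg9 is a multispanning scramblase carried on vesicles. Atg2 (FBgn0044452) lies at 3L:2774338-2780677 on the plus strand, and a single broad IDR peak interval, 3L:2773895-2774393, carried 2 summits. The stronger was at 2774095, at -243 bp from Atg2 and 88 bp from the CG12093 start, with a pooled signal of 1440 at rank 192. It had a signal of 827 at rank 178 in replicate 1 and 602 at rank 221 in replicate 2, the highest rank of any autophagy gene summit in both replicates. The weaker, at -41 bp, had a pooled signal of 337.9 at rank 2114 and differed more between replicates, with 239 at rank 1538 in replicate 1 and 76.7 at rank 5610 in replicate 2. The Atg2 stretch printed above covers both summits and holds none of the words searched.

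Atg9 (FBgn0034110) is a gene of 1 exon at 2R:16294400-16297232 on the plus strand. Its 1 IDR summit, at 16294328, lay 72 bp upstream of the Atg9 start and 198 bp from that of CG7747. The pooled signal was 415.9 at rank 1603, with 252 at rank 1425 in replicate 1 and 150.3 at rank 2233 in replicate 2. It was the third highest of the set by strongest signal at a start, after Atg2 and Atg7.

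Atg7 is the E1-like enzyme that activates the ubiquitin-like proteins of both conjugation systems. The gene (FBgn0034366) lies at 2R:18620466-18625044 on the minus strand and had 2 strong IDR summits. The summit between Atg7 and Sec6, which encodes an exocyst subunit, was at 18625159, at -115 bp from Atg7 and 90 bp from Sec6. It had a pooled signal of 880 at rank 489, with 400 at rank 699 in replicate 1 and 484 at rank 343 in replicate 2. The other summit was stronger, with a pooled signal of 1143 at rank 298, and lay 3497 bp into Atg7 in an intron. It ranked 295 in replicate 1 and 305 in replicate 2, and it was 6 bp from the start of the nested gene CG5335, so its place inside Atg7 does not separate it from a promoter peak of CG5335.

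Atg3 is the E2-like enzyme that passes Atg8 to phosphatidylethanolamine. The gene (FBgn0036813) lies at 3L:18748687-18750483 on the plus strand, and its IDR summit was at 18748438, at -249 bp from Atg3 and 71 bp from Nufip. The pooled signal was 222.5 at rank 3712, with 124.0 at rank 3743 in replicate 1 and 99.8 at rank 3945 in replicate 2, where the matched summit was 85 bp away, about midway between the starts of Atg3 and Nufip. A second summit, at -43 bp and so nearer to the Atg3 start, had a pooled signal of 138.4, just under the lowest IDR signal. Its rank was 7096 in replicate 1 and 13365 in replicate 2, so the peak farther upstream of Atg3 was the higher in both.

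Atg5 is the protein to which Atg12 is joined, and with Atg16 it directs Atg8 to the membrane. The gene (FBgn0029943) lies at X:7314622-7323770 on the minus strand, inside CG1677 and the long non-coding gene lncRNA:CR44357, so each of its 9 pooled summits also lay in another gene. The stronger IDR summit was in an intron 4534 bp into Atg5, with a pooled signal of 242.5 at rank 3296, at rank 2915 in replicate 1 and rank 3887 in replicate 2. The IDR summit at the start, at -108 bp and 336 bp from Dok, was the weakest IDR summit of the set, with a pooled signal of 144.4 at rank 6342. It had a signal of 85.7 at rank 5959 in replicate 1, where the matched summit was 169 bp away, and 59.9 at rank 7532 in replicate 2. That replicate 1 summit was nearer to Dok, at 167 bp, than to Atg5, at -277 bp.

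Atg4a is a cysteine protease that trims Atg8 before conjugation and can release it from lipid. The gene (FBgn0031298) lies at 2L:1080911-1085380 on the plus strand. Its single pooled summit was in the 5′ UTR, 130 bp from the start, with a pooled signal of 69.2 at rank 13268. Replicate 1 had a peak of signal 69.0 at rank 7668 there, and replicate 2 had no summit near the start or inside the gene. The call at Atg4a therefore rests on replicate 1.

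By the strongest pooled signal at a start, the order was Atg2, Atg7, Atg9, Atg8a, Atg3, Atg6, Atg5, Atg1 and Atg4a. Atg2 stood 188th among the 13945 protein-coding genes, with 1.34% of genes stronger, and Atg7 stood 506th, with 3.62% stronger. Atg9 was exceeded by 10.9% of genes, Atg8a by 17.9%, Atg3 by 22.0%, Atg6 by 31.3%, Atg5 by 32.8%, Atg1 by 38.3% and Atg4a by 49.0%. The first 5 kept this order in each replicate by rank. Atg6, Atg5 and Atg1 could not be separated: in replicate 1 they ranked 5933, 5959 and 5692, and in replicate 2 they ranked 7913, 7532 and 8053. The order does not assign a summit to one gene of a pair. For Atg2, Atg7, Atg3 and Atg6 the summit used was nearer to the neighbour's start. The Atg2 summit at -41 bp, nearer to its own start, had a pooled signal of 337.9, below the 415.9 of Atg9.

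Among the genes with an IDR summit at a start, the median of the strongest such signal was 270.3 for the 7 autophagy genes and 289.5 for all 4641 genes. The middle range of all genes was 196 to 504, and that of the autophagy genes was 187.5 to 648. A larger share of the autophagy genes than of all genes thus had an IDR summit at a start, while the median signal of those that had one was not higher.

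**Figure D4:**
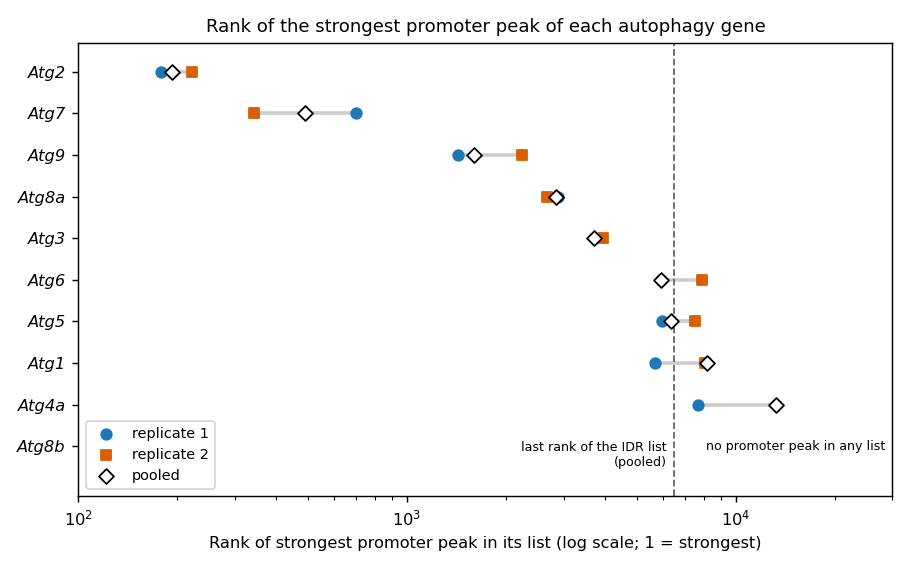
Rank (log scale; 1 is the strongest) of the strongest peak within 500 bp of a start of each autophagy gene in replicate 1 (circles), replicate 2 (squares) and the pooled list (diamonds); the dashed line is the last rank of the IDR list, 6486, on the pooled scale. Atg2 and Atg7 lie far to the left, Atg6, Atg5 and Atg1 overlap near the line, Atg4a has no square and Atg8b has no point.

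Atg8a and Atg8b encode ubiquitin-like proteins that are attached to the autophagosome membrane. Atg8a is the broadly used form, and Atg8b is known in flies mainly from the male germline. Atg8a (FBgn0052672) lies at X:10764878-10768338 on the minus strand (3461 bp, 3 transcripts with 3 starts), and Atg8b (FBgn0038539) lies at 3R:17724410-17725063 on the minus strand (654 bp, 1 exon, 2 transcripts whose starts are at 17725063 and 17725044). Atg8a had 2 IDR and 6 pooled summits, with 5 summits in replicate 1 and 4 in replicate 2, against 0 for Atg8b in each of the 4 lists.

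The strongest Atg8a summit was at 10767410, at -104 bp from the internal start at 10767306 and within the intron of the transcript that begins farther upstream. It had a pooled signal of 270.3 at rank 2849, with 150.1 at rank 2877 in replicate 1 and 127.5 at rank 2812 in replicate 2. These ranks were close to each other, and no other gene's start lay within 500 bp. It was the single IDR summit at a start in the set of which this was true.

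The distal Atg8a start, at 10768338, lies 199 bp from that of BTBD9, and its IDR summit was at 10768316 in the 5′ UTR, 22 bp into the gene and 221 bp from BTBD9. The pooled signal was 195.1 at rank 4398, with 70.2 at rank 7504 in replicate 1 and 132.5 at rank 2662 in replicate 2, where the matched summit was 105 bp away. The internal start was therefore the higher of the 2 in replicate 1, and the peak matched to the distal start was slightly the higher in replicate 2. That replicate 2 summit lay between the 2 starts, at -83 bp from Atg8a and 116 bp from BTBD9. The same peak also overlapped a pooled summit of signal 94.5 that was 20 bp from BTBD9, so it cannot be given to Atg8a alone. The third start, at 10766656, had a pooled summit of signal 45.0 within 500 bp and none in the IDR list.

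At Atg8b the distance to the nearest summit was 6725 bp in the IDR list, 1432 bp in the pooled list, 1233 bp in replicate 1 and 1512 bp in replicate 2. The nearest pooled summit had a signal of 43.4 at rank 20136, and the nearest peaks in the replicates were close to the weakest listed, with 18.1 in replicate 1 and 16.2 in replicate 2. For an Atg8b peak the lists thus allow a pooled signal below their lowest value of 27.5, and 62.9% of all protein-coding genes exceeded that at a start. Within 500 bp of each start of the set, Atg8a and Atg8b included, 0 of 966 words of 36 bases occurred a second time on the 6 chromosome arms. The rest of the assembly was not searched. The length of the reads is unknown, and how uniquely they were placed was not tested.

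**Figure D5:**
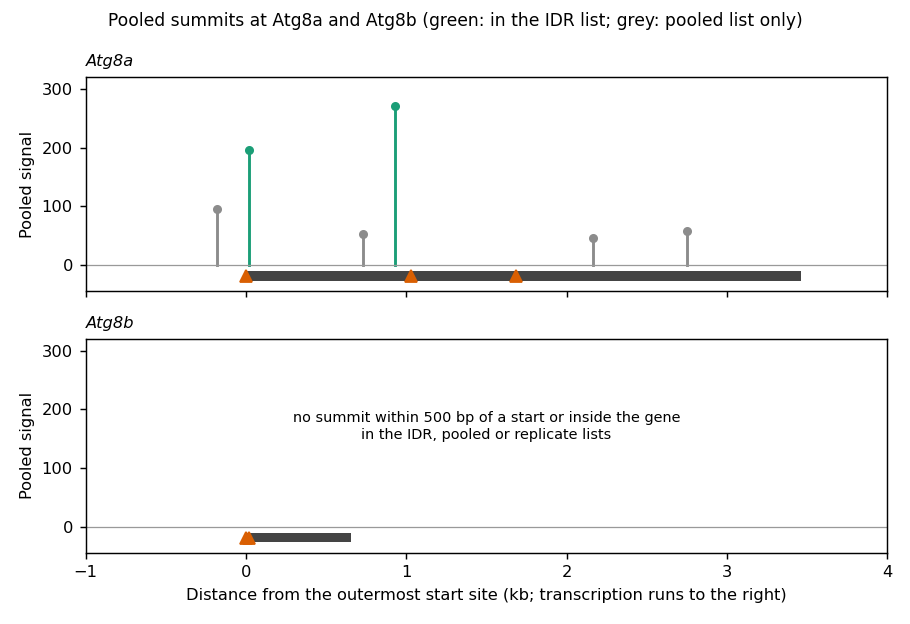
Pooled signal of every pooled summit at Atg8a (top) and Atg8b (bottom) against distance from the outermost start in kb, on the same axes; dark blocks are the genes, triangles the starts, and green stems are IDR summits. Atg8a has stems of 195.1 and 270.3 at its distal and internal starts, and Atg8b has none.

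The reference sequence at the starts of Atg8a and Atg8b was compared by GC content and by core promoter words. GC content within 100 bp of the start was 49.3% at the distal, 37.8% at the internal and 39.8% at the third start of Atg8a, against 42.3% and 40.8% at the starts of Atg8b, where the median over all starts was 42.3%. The Atg8b values thus lay within the range of the Atg8a starts. The distal Atg8a region held TATCGATA, the DNA replication-related element, within 100 bp of its summit (the leader stretch printed above), and GGTCACACT, the core of the motif called Motif 1, within the 250 bp upstream to 50 bp downstream of its start. GGTCACACT lay 188 bp upstream, on the strand of BTBD9, whose start is 199 bp from that of Atg8a. That word therefore cannot be given to Atg8a alone. The internal Atg8a start and both starts of Atg8b held none of the 5 words searched. The internal start of Atg8a had an IDR summit and Atg8b had none, so these words did not separate them.

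Words were searched on both strands and counted separately, so matches may overlap. The letters of all 5 came from general knowledge of fly core promoters and not from a source used here, and those of Motif 6 and Motif 7 are the least certain, so the counts for these motifs hold only for the letters used. TATCGATA occurred within 100 bp of 5.69% of all IDR summits, GGTCACACT within 100 bp of 2.93%, the E-box CACGTG within 100 bp of 2.37%, Motif 6 within 100 bp of 1.02% and Motif 7 within 100 bp of 7.37%. Of the 13 IDR summits in autophagy genes, 2 had a match: the distal summit of Atg8a with TATCGATA and the Atg3 summit with GGTCACACT, which lies on the Nufip side outside the stretch printed above. Around the starts, Atg3 and Atg7 held TATCGATA, Atg8a held GGTCACACT, Atg4a held CACGTG, and Atg5 and Atg6 held Motif 7, while Atg1, Atg2, Atg8b and Atg9 held none. At head-to-head genes a word in this window can lie by the neighbour's start, as GGTCACACT at Atg8a lay by BTBD9. Over all genes the shares around a start were 10.2% for TATCGATA, 6.78% for GGTCACACT, 5.30% for CACGTG, 2.52% for Motif 6 and 11.1% for Motif 7. GC content within 100 bp of the autophagy gene IDR summits ranged from 24.4% at the weaker Atg1 intron summit to 52.2% at the distal Atg8a summit, and the median over all IDR summits was 36.3%.

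Other genes of the pathway were taken from a list of 31, all of which were found. Of these, 21 (67.7%) had an IDR summit, against 36.6% of all protein-coding genes, 20 (64.5%) had one at a start, against 33.3%, and 29 had a pooled summit, against 66.6%. Their median strongest IDR signal at a start was 323.7. A head-to-head neighbour within 500 bp was present for 9 of the 20 with an IDR summit at a start (45.0%) and for 3 of the 11 without (27.3%), so the clean division of the core genes did not recur in this list. The 9 were Atg17 (Xe7), Uvrag (Drep4), Atg18a (ERR), tank (CG12194), Atg4b (Hibch), Atg12 (CG5645), Snap29 (CG5554), car (Grip84) and Vps39 (eIF1A). Their signals, given below, were not assigned to 1 gene of the pair.

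In the initiation complex, the Atg1 partners Atg13 and Atg17 had IDR summits with strongest signals of 151.0 and 920, and Atg101 had no pooled summit. All 5 genes of the phosphatidylinositol 3-kinase complex had an IDR summit at a start, with a strongest signal of 586 at Vps15, 649 at Uvrag, 275.8 at Atg14, 216.2 at Rubicon and 156.0 at Pi3K59F, the catalytic subunit. Every gene listed for this complex, Atg6 included, thus had one, against 33.3% of all protein-coding genes. Atg6 was added here from the core list, and the other roles were not joined with their core genes. Shares in the other roles went as low as 2 of 6 for the HOPS subunits. The Atg6 summit is shared with the start of Pisd and cannot be assigned to either gene. The summits of Atg6 and Pi3K59F, at ranks 5946 and 5803, were close to the end of the IDR list.

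Among membrane supply genes, Atg18a (strongest signal 756) and tank (850) had an IDR summit at a start, Atg18b (191.4) had one in its body, and Tango5, the fly Vmp1, had a strongest pooled signal of 141.6, just under the IDR limit. In the conjugation systems Atg4b had a signal of 693 and Atg12 of 539 at a start, while Atg10 had no pooled summit. Atg16 had 353 in its body and 146.2 at its start, the latter just above the lowest IDR signal. Atg4b, the second fly protease for Atg8, thus had a higher signal than Atg4a, which had 69.2 in the pooled list. Atg4b has the head-to-head neighbour Hibch and Atg4a has none, so the higher signal cannot be given to Atg4b alone. The cargo receptor ref(2)P had 161.4, and bchs had 236.0.

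Of the 5 genes for fusion with the lysosome, Syx17 (191.9), Snap29 (804) and Epg5 (324) had an IDR summit, and Vamp7 (78.8) and Plekhm1 (114.95) had a pooled summit alone. Of the 6 HOPS tethering subunits, car (323) and Vps39 (197.6) had an IDR summit, and Vps16A, dor, Vps11 and lt had a pooled summit alone. The 2 transcriptional regulators differed widely. REPTOR, a transcription factor held back by TOR signalling, had 8 IDR summits and the highest signal of any pathway gene, 2386 at rank 61, and Mitf, the fly TFEB, had a strongest pooled signal of 120.0 and no IDR summit.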

How the data were processed

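Peak lists of anti-GFP ChIP-seq from 2 biological replicates, per the labels, were used as deposited: 1 list per replicate, 1 for the pooled replicates and 1 of IDR peaks, in dm6. The signal of a peak and its −log10 q value were made by the authors, and −log10 q was used only to check the lists. The aligner, the peak caller, the IDR threshold and the depth of reads were not given in the sources used here. A summit was assigned to a gene within 500 bp of an Ensembl release 115 start or inside the gene. Replicate peaks were matched by 1 bp of overlap, nearest summit first. Sequence came from RefSeq Release 6. Words were searched within 100 bp of summits and from 250 bp upstream to 50 bp downstream of starts. Figures were drawn in matplotlib 3.10.9, tables were joined in pandas 2.3.3 and numpy 2.4.6 under Python 3.11.15, and the assignment was checked on planted peaks. No test was made.

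Members and lists were chosen with earlier results of these data known. All 10 members were named, each other pathway gene with an IDR summit was named with its strongest signal, and genes whose start lay within 500 bp of a member summit, or whose body held it, were named as neighbours. Pathway genes without an IDR summit were named after their values were seen. The alternatives were other windows, starts, overlaps and list lengths, and each replicate alone.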

Additional observations from a re-analysis of the deposited data

How the results depend on the processing

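Of 50 alternative values over 8 results, 43 stayed the same, which for a count means within 1.5 times of the reported count and for the Atg8a signal the identical value, and 7 moved. With the 3243 strongest IDR peaks, 5 members had a summit (22.8% of all genes), 4 had one at a start (19.8%), and 13 other pathway genes had one. When no other gene could hold the summit or have a nearer start, 4 members had an IDR summit and 6 a pooled summit. The share of all genes was not computed under this rule, so these counts have no background beside them. With each replicate's 6486 strongest peaks in place of the IDR list, 7 to 8 members had a summit (36.5% of all genes without replicate 1, 36.4% without replicate 2), 5 had one at a start without replicate 1 (32.9%), 8 had one without replicate 2 (33.0%), and 21 other pathway genes had one in each. Leaving out a replicate of the pooled list gave 8 members without replicate 1 (66.0% of all genes) and 9 without replicate 2 (66.2%). The strongest Atg8a signal was 132.5 without replicate 1 and 150.1 without replicate 2, on other scales than the pooled value, with ranks of 2662 and 2877. Neighbour distances were chosen after seeing the data: at 250 bp, 3 bound members had a neighbour, and at 1000 bp 9 members did, 7 of them bound, so the division between bound and unbound members was lost. Atg8b had no value under any setting. No paired analysis was possible because there was 1 group. With depth unknown, a missing peak means a signal below the lowest of the list, and a summit shared by 2 starts cannot be given to either gene.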
